A study of Mus musculus with 6 samples.

Results

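Cd34 and Itga6 encode CD34 and α6 integrin, the surface proteins by which the hair follicle stem cells (HFSCs) of this study were sorted. The 2 genes were taken by symbol from the 56941 genes of the count table, and both were counted in every library. The choice used the sort and not the counts. The sort selected cells by protein on the surface, whereas the values below are RNA levels in the cells that passed the gate.

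Total RNA was sequenced from HFSCs sorted as CD34+/α6-integrin+ from a trypsin-made suspension of dorsal epidermis of female mice at postnatal day (PD) 68, with 3 libraries labelled WT and 3 labelled Dab2-cKO. All animals were of the strain B6;129S4-Dab2tm1Cpr/J, were homozygous for the floxed allele (Dab2 fl/fl) and received tamoxifen at 75 mg/kg per day on 5 consecutive days. Dab2-cKO mice also carried K14CreER, and WT mice lacked it. K14CreER is a Cre recombinase that tamoxifen activates and that the keratin 14 promoter drives in basal keratinocytes. The comparison addressed how loss of Dab2, an endocytic adaptor protein, changes the RNA of these cells.

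CD34 is a sialomucin, a transmembrane protein whose outer part is rich in serine and threonine that carry sugar chains. In mouse skin it marks the bulge, the niche of the HFSCs in the resting follicle, but it is also found on capillary endothelium, on part of the dermal fibroblasts, and on mast cells and blood progenitors. α6 integrin is 1 chain of a laminin receptor. It pairs with β1 or β4 integrin, and α6β4 sits in hemidesmosomes, the junctions that fix basal keratinocytes to the basement membrane. Because each basal keratinocyte carries α6 integrin and few carry CD34, the pair of antibodies separates bulge cells from the rest of the basal layer.

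Cd34 (ENSMUSG00000016494) lies on the plus strand of chromosome 1 at 194621029 to 194647172 in GRCm39, and its canonical transcript has 8 exons. Itga6 (ENSMUSG00000027111) lies on the plus strand of chromosome 2 at 71575960 to 71689757, and its canonical transcript has 26 exons. A coding stretch of each is shown to make visible which protein the counts stand for. Exon 2 of Cd34, 168 bases at chr1:194630147-194630314, encodes mucin-like sequence, and capitals mark its serine and threonine codons. The coding part of Itga6 exon 25, 105 bases at chr2:71683878-71683982, starts the cytoplasmic tail, and capitals mark the codons of GFFKR, the motif by which α chains of integrins hold their β chain inside the membrane.
Cd34 exon 2: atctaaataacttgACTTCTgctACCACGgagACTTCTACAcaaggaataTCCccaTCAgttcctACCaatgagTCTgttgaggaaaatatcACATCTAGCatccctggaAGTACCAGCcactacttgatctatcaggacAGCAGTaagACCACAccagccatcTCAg
Itga6 exon 25: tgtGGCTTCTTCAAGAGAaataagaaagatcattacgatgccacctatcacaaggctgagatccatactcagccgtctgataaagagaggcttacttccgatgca

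Of the 55 whole codons in Cd34 exon 2, 22 (40%) encode serine or threonine, against 24.3% of the 382 codons of the whole coding sequence. All 11 coding transcripts annotated for Cd34 contain this exon. In Itga6 the GFFKR codons start at codon 1040 of 1073. With the same start and end, exon 25 is in 2 of the 13 coding transcripts of Itga6. It encodes the tail of the α6A form, and the other coding transcripts have no exon with that start and end. The counts are per gene, so forms with different tails were added together and cannot be told apart here.

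Total counts lay between 7040032 and 11696457 per library. The targeted gene did not fall with the label. Dab2 had a mean of 327 ± 15.4 normalized counts in WT libraries and 1375 ± 68.2 in Dab2-cKO libraries (SD, n = 3), a log2 fold change of 2.08 (adjusted p = 3.04e-34). This is a count over the whole gene, and reads of the deleted exons were not separated from the rest. The columns of the Dab2-cKO group are headed FL-FL after the floxed alleles, which both genotypes carry, so each direction below depends on the assignment of these columns and belongs to the libraries as labelled. Normalized counts are counts after TMM scaling, on the scale of the mean library, and a gene was called when the adjusted p of edgeR's quasi-likelihood test was under 0.05. Of 32149 genes tested, 28.2% were called, 16.8% as higher and 11.5% as lower in the libraries labelled Dab2-cKO. When only the 14801 genes with a mean count of at least 50 were tested, 8523 were called, 4461 as higher and 4062 as lower. The counts of called list members below are to be read beside these values. Nothing in the labels ties replicate numbers to animals beyond calling them biological replicates, so p-values measure the spread between these libraries.

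Cd34 was 3.48-fold higher in the libraries labelled Dab2-cKO. The 3 libraries labelled WT had 409, 622 and 602 raw counts, and the 3 labelled Dab2-cKO had 1840, 1582 and 1598. After normalization these were 455, 562 and 514 in WT and 1755, 1820 and 1764 in Dab2-cKO. The groups did not overlap, and the lowest library labelled Dab2-cKO stood far above the highest labelled WT. The means were 510 ± 53.2 and 1780 ± 35.6 normalized counts (SD, n = 3). The log2 fold change was 1.80 with an SE of 0.08 and a 95% interval of 1.65 to 1.95 (adjusted p = 9.12e-32). Among the 10846 genes with a mean of at least 100 normalized counts, 400 had a larger log2 fold change, which put Cd34 in the top 3.70%. With the labels exchanged, this would be its place counted from the most lowered gene. In bulk RNA, more cells with Cd34 and more Cd34 RNA per cell cannot be told apart.

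Itga6 was also higher, by less. Its normalized counts were 944, 1007 and 928 under the WT label and 1377, 1464 and 1385 under the Dab2-cKO label, again without overlap. The means were 960 ± 41.6 and 1409 ± 47.8 (SD, n = 3), a 1.47-fold difference. The log2 fold change was 0.55 with an SE of 0.07 and a 95% interval of 0.41 to 0.70 (adjusted p = 9.58e-10). Of the 10846 genes with a mean of at least 100 normalized counts, 2660 had a larger log2 fold change. The call of Itga6 rested on the scaling between libraries. With library size only, its log2 fold change was 0.13 (adjusted p = 0.0756), while the median over all genes tested moved from -0.02 to -0.45. In CPM, counts scaled to an equal library total, Itga6 lay between 114 and 121 in WT and between 124 and 136 in Dab2-cKO, whereas Cd34 lay between 58.1 and 65.7 and between 157 and 169.

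**Figure D1:**
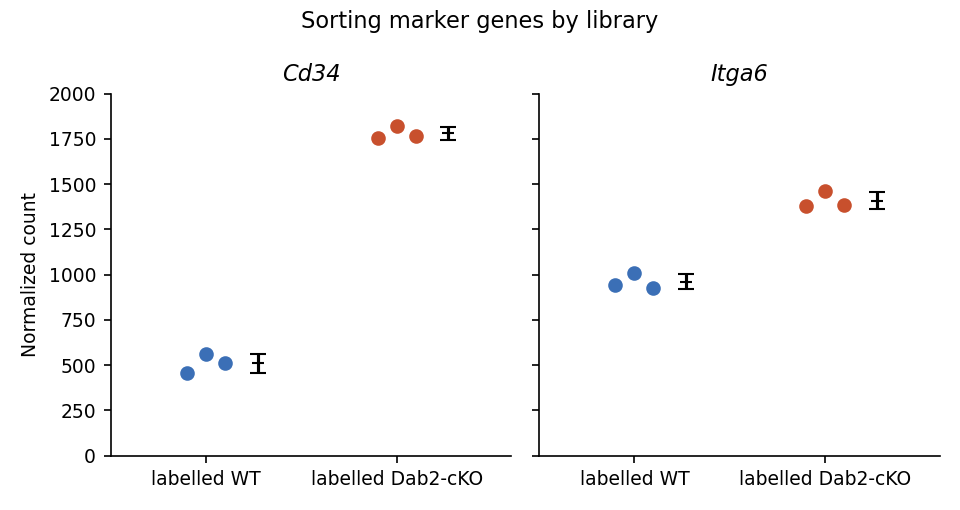
Normalized counts (vertical axis) of Cd34 and Itga6 in each library, grouped by the genotype on the label, with points for the 3 libraries and bars for the mean ± SD. The Cd34 points rise from 455 to 562 in WT up to 1755 to 1820 in Dab2-cKO, and the Itga6 points from 928 to 1007 up to 1377 to 1464.

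Both genes were expressed above background in each genotype. Chemosensory receptor genes, known mainly from sensory neurons, served as a measure of reads that fall evenly on genes: over 1526 of them the normalized count per kb of exon had a median of 4.94 and a 95th percentile of 11.8. Over its union of exons, Cd34 had 42.7 ± 4.45 normalized counts per kb (SD, n = 3) in WT and 149 ± 2.98 in Dab2-cKO. Itga6 had 84.3 ± 3.65 and 124 ± 4.20. An even background at the receptor median would give Cd34 59.1 normalized counts, or 11.6% of its WT level and 3.32% of its Dab2-cKO level. For Itga6 it would give 56.2, or 5.86% and 3.99%. The exons of a lncRNA on the opposite strand overlap 4.11% of the Cd34 exon bases, and for Itga6 this was 0.439%.

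The order of the sorting markers turned between the genotypes. In the ranking of 56323 genes by normalized counts per kb, Cd34 moved from position 6979 in WT to position 1565 in Dab2-cKO, and from the top 12.4% to the top 2.78%. In single libraries its position was 8199, 6595 and 7095 in WT and 1621, 1543 and 1605 in Dab2-cKO. Itga6 moved from position 2950 (5.24%) to position 1979 (3.51%). Its single libraries stood at 2951, 3023 and 3127 in WT and at 2081, 1933 and 2047 in Dab2-cKO. Itga6 thus ranked above Cd34 in each library labelled WT and below it in each labelled Dab2-cKO. Among 21667 protein-coding genes, Cd34 stood at 5148 and 1236 and Itga6 at 2312 and 1605.

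**Figure D2:**
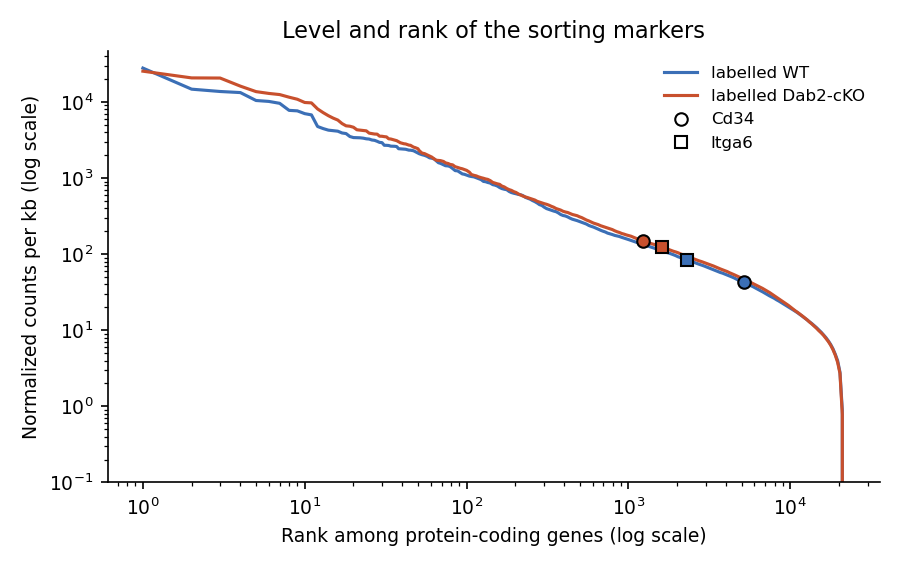
Mean normalized counts per kb of exon (vertical axis, log scale) against the rank of the gene (horizontal axis, log scale) among 21667 protein-coding genes. There is 1 line per genotype, with circles for Cd34 and squares for Itga6. Cd34 moves from rank 5148 in WT to rank 1236 in Dab2-cKO, past Itga6, which moves from rank 2312 to rank 1605.

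These positions depend on the length used. The union of exons is 11961 bases for Cd34 but its canonical transcript only 2468 bases, against 11382 and 4413 bases for Itga6. Per kb of canonical transcript, Cd34 had 207 normalized counts in WT and 721 in Dab2-cKO, and Itga6 217 and 319. On that length Cd34 stood at position 1777 in WT and 456 in Dab2-cKO, and Itga6 at 1657 and 1216. The WT levels of the pair were then close, and in Dab2-cKO Cd34 remained above Itga6. Against 88 protein-coding genes named Cd with a number, a group of leukocyte and surface antigens, Cd34 was 18th in WT and 12th in Dab2-cKO over the union of exons, and 10th and 2nd over the canonical transcript.

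The ratio of Cd34 to Itga6 within a library does not depend on the scaling between libraries. On a log2 scale with a pseudocount of 0.5, it was -1.05, -0.84 and -0.85 under the WT label and 0.35, 0.31 and 0.35 under the Dab2-cKO label. Each library labelled WT thus held fewer Cd34 than Itga6 counts, and each labelled Dab2-cKO held more. The difference of the means was 1.25, a 2.38-fold shift. The exact 2-sided permutation p was 0.1, the smallest that 3 against 3 libraries allow. In all, 21 ratios of this kind were tested, and after Benjamini-Hochberg adjustment each with an exact permutation p of 0.1 had 0.117, so none passed 0.05.

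Set beside the 20 basal keratinocyte genes, Cd34 stood outside their range and Itga6 within it. All 20 passed the filter on low counts, and 10 were called higher, 8 lower and 2 not called in the libraries labelled Dab2-cKO. Their median log2 fold change was 0.23, against -0.02 over all genes tested, with a range of -1.91 to 1.01. With library size only, 8 were called higher and 10 lower. The log2 fold change of Cd34 exceeded that of all 20, and that of Itga6 exceeded 11 of them. Higher than Itga6 were Krt5, Krt14 and Krt15, keratins of the basal layer and, for Krt15, of the bulge, and the adhesion genes Itgb1, Itgb4, Col17a1, Dst, Plec and Lamb3.

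The keratins and the transcription factor of the basal layer moved apart. Krt14 rose from 6378 ± 420 to 11470 ± 255 normalized counts (SD, n = 3), with a log2 fold change of 0.85, and Krt5 by 0.62. Trp63, which encodes the p63 factor of stratified epithelia, fell by 0.53 on the log2 scale, from 2339 ± 105 to 1620 ± 66.2. The growth factor receptor genes Egfr and Fgfr2 fell by 0.88 and 0.46 on that scale. The lowest value was that of Cdh3, which encodes P-cadherin and fell by 1.91.

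**Figure D3:**
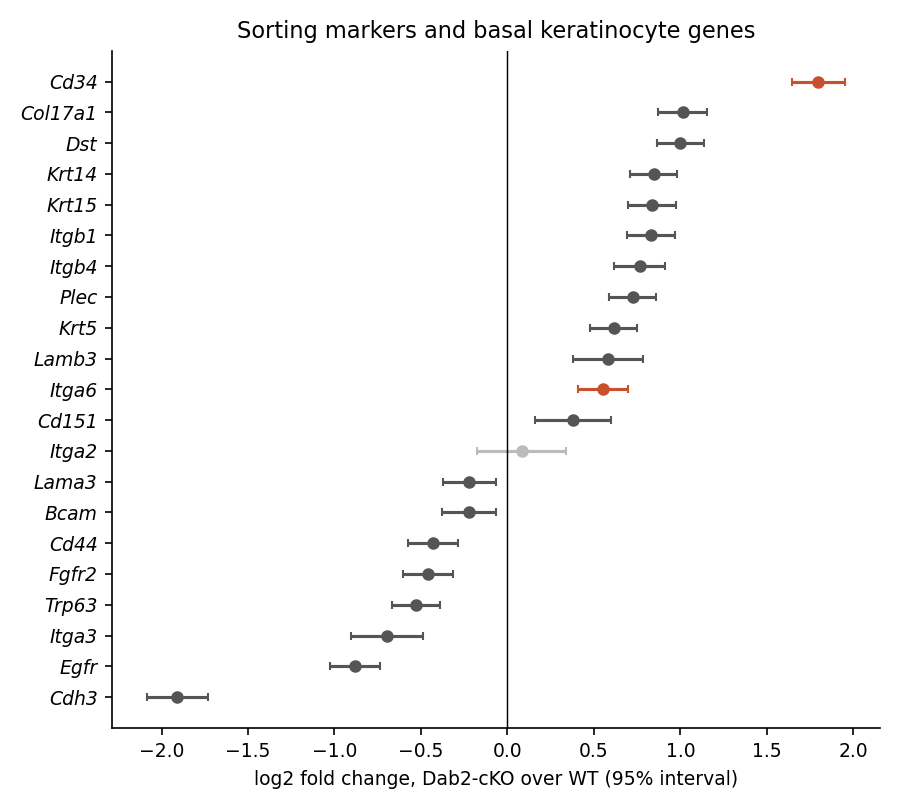
Log2 fold change, Dab2-cKO over WT (horizontal axis), with its 95% interval, of Cd34 and Itga6 (red) and of the basal keratinocyte genes reported here by name (dark gray when called, light gray when not). Cd34 at 1.80 lies above all genes plotted, and Itga6 at 0.55 lies among them, below Lamb3 at 0.58 and above Cd151 at 0.38.

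Relative to the mean log2 level of the 20 genes, Cd34 was at -1.49, -1.32 and -1.41 in WT and at 0.26, 0.31 and 0.30 in Dab2-cKO. The difference was 1.69, or 3.24-fold (exact permutation p = 0.1). Itga6 was at -0.43, -0.48 and -0.56 in WT and at -0.09, -0.01 and -0.05 in Dab2-cKO. Its difference was 0.44, or 1.36-fold (exact permutation p = 0.1). In neither gene did the groups overlap.

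Against single genes of the basal layer, Cd34 was higher relative to each of the 7 compared, and Itga6 lower relative to most of these 7. The 7 were Krt5, Krt14, Krt15, Itgb1, Itgb4, Col17a1 and Trp63. All but Trp63 had a larger log2 fold change than Itga6, so the result for Itga6 followed from the choice of genes. Over the whole list, Itga6 had a larger log2 fold change than 11 of 20. The log2 ratio of Cd34 to Krt5 differed by 1.19 between the genotypes and that of Cd34 to Col17a1 by 0.79. The ratio of Itga6 to Krt5 differed by -0.06, and over the pairs of libraries the difference ran from -0.18 to 0.01 (exact permutation p = 0.2). Relative to Krt14 the difference of Itga6 was -0.30, relative to Itgb1 -0.28, relative to Itgb4 -0.21 and relative to Col17a1 -0.46, with no overlap of the groups. Relative to Trp63 it was 1.08. The direction for Itga6 therefore turned with the reference gene, and with Krt5 and Krt14 as the only reference it was -0.18.

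Markers of other cell types were detected in all libraries and moved with the genotype on the label. All 8 endothelial markers, Pecam1, Cdh5, Kdr and Vwf among them, were called higher in the libraries labelled Dab2-cKO, with a median log2 fold change of 1.83. Their summed level was 206 to 243 normalized counts per kb in WT and 732 to 736 in Dab2-cKO. All 8 fibroblast markers were called higher too, with a median of 1.62, and they took 1.30% to 1.44% of all counts in WT and 3.19% to 3.49% in Dab2-cKO. Among these, Col1a1, a collagen gene of dermal fibroblasts, had 7018 normalized counts per kb in WT and 20700 in Dab2-cKO, above Krt14 with 3403 and 6122. No marker of either list was at 0 in any library. Of the 8 immune and mast cell markers, 5 were called higher, among them the mast cell protease gene Cpa3 with a log2 fold change of 2.48, while Kit was called lower and 2 were not called. CD34 and α6 integrin are both made by endothelial cells as well, and the part of these cell types in the rise of Cd34 and Itga6 was not tested.

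Relative to these lists, the sorting markers gave different values. The log2 ratio of Cd34 to the mean of the endothelial markers was 1.73, 2.03 and 1.604 in WT and 1.84, 1.90 and 1.82 in Dab2-cKO. The difference of the means was 0.06, and over the pairs of libraries it ran from -0.21 to 0.30 (exact permutation p = 0.7). Relative to the fibroblast markers, Cd34 was at -2.40, -2.27 and -2.29 in WT and at -2.27, -2.32 and -2.30 in Dab2-cKO. That difference was 0.02, with a range over the pairs of -0.05 to 0.13 (exact permutation p = 0.9). Itga6 was lower relative to both lists in the libraries labelled Dab2-cKO, by -1.19 and -1.23, without overlap of the groups (exact permutation p = 0.1 in each). Cd34 differed 3.24-fold relative to basal keratinocyte genes and 1.04-fold and 1.02-fold relative to endothelial and fibroblast markers. These lists were taken as a reference after the data were seen.

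**Figure D4:**
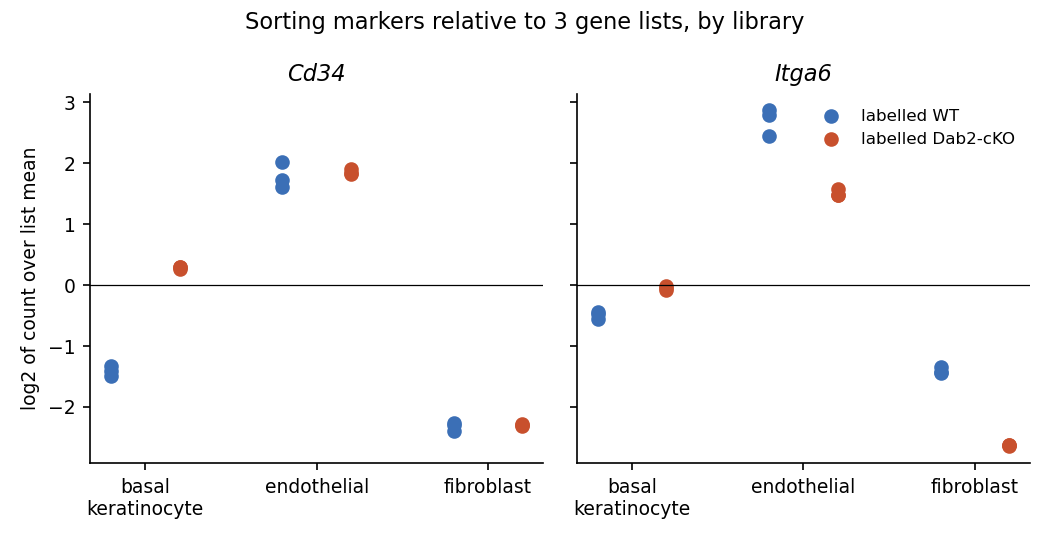
Log2 of the normalized count of Cd34 or Itga6 over the mean log2 level of 3 gene lists (vertical axis), with 1 point per library, WT in blue and Dab2-cKO in red. For Cd34 the genotypes lie apart relative to basal keratinocyte genes, with means of -1.41 and 0.29, and overlap relative to endothelial and fibroblast markers, whereas for Itga6 they lie apart for each of the 3 lists.

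Markers of the bulge gave a mixed picture beside Cd34. Of 12 bulge markers, 4 were called higher, 7 lower and 1 not called, with a median log2 fold change of -0.56. Krt15, Nfatc1, which encodes a factor of bulge quiescence, and Postn rose by 0.84, 1.32 and 0.66 on the log2 scale, and Tcf7l1 by 0.37 (adjusted p = 0.0132). Tcf7l1 was not called by DESeq2 (adjusted p = 0.0503), under 4 of the other scalings, or without WT replicate 1, Dab2-cKO replicate 1 or Dab2-cKO replicate 3 (adjusted p = 0.0999, 0.0503 and 0.117), and its log2 fold change was -0.055 with library size only. In contrast, Sox9, Lhx2 and Tbx1, which encode factors of the bulge program, fell by 1.45, 1.43 and 1.99, and Lgr5 fell by 1.32. Keratinocytes of other fates moved as well. Of 8 markers of differentiated epidermis, 7 were called higher, with Krt10 at 2.37, and Ivl was lower at -0.96. All 7 hair shaft and inner root sheath markers analysed were called lower with a median of -6.58, as were all 8 proliferation markers with -1.62 and all 4 melanocyte markers with -2.22. The hair shaft and inner root sheath markers summed to 61420 to 73190 normalized counts per kb in WT and 600 to 645 in Dab2-cKO. They took 2.78% to 3.07% of all counts in WT. The 20 basal keratinocyte genes summed to 10550 to 12030 per kb in WT and 17780 to 18240 in Dab2-cKO.

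Among the 26 integrin genes, Itga6 was the α chain with the highest level per kb of exon in each genotype. All 26 passed the filter. Over the union of exons, Itgb1, Itgb4 and Itgb5 stood above Itga6, with 272 ± 5.55, 104 ± 1.41 and 86.7 ± 11.99 normalized counts per kb (SD, n = 3) in WT. This order can change with the length used. The canonical transcript has 4413 bases against 11382 in the union of exons for Itga6, 6230 against 7218 for Itgb4 and 3329 against 7060 for Itgb5. The integrin genes were not ranked over canonical transcripts. The WT level of Itgb5 did not differ from the 84.3 ± 3.65 of Itga6 beyond the spread of the libraries. Next below Itga6 in WT was Itga3, the chain of another laminin receptor, with 77.5 ± 0.56, and in Dab2-cKO it was Itgb2 with 105 ± 11.6. By the test, 13 integrin genes were called higher, 3 lower and 10 not called, with a median log2 fold change of 0.31. With library size only these counts were 7 higher and 9 lower. The log2 fold change of Itga6 was exceeded by 10 of the 25 other integrin genes, and was largest for Itgam at 1.68, Itga4 at 1.12 and Itgb2 at 1.09. In WT, Itgam and Itga4 were at 9.03 and 9.045 normalized counts per kb, below the receptor 95th percentile of 11.8. Itga3 fell by 0.69 on the log2 scale and Itgb6, an epithelial chain, by 0.79, in the opposite direction to Itga6.

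**Figure D5:**
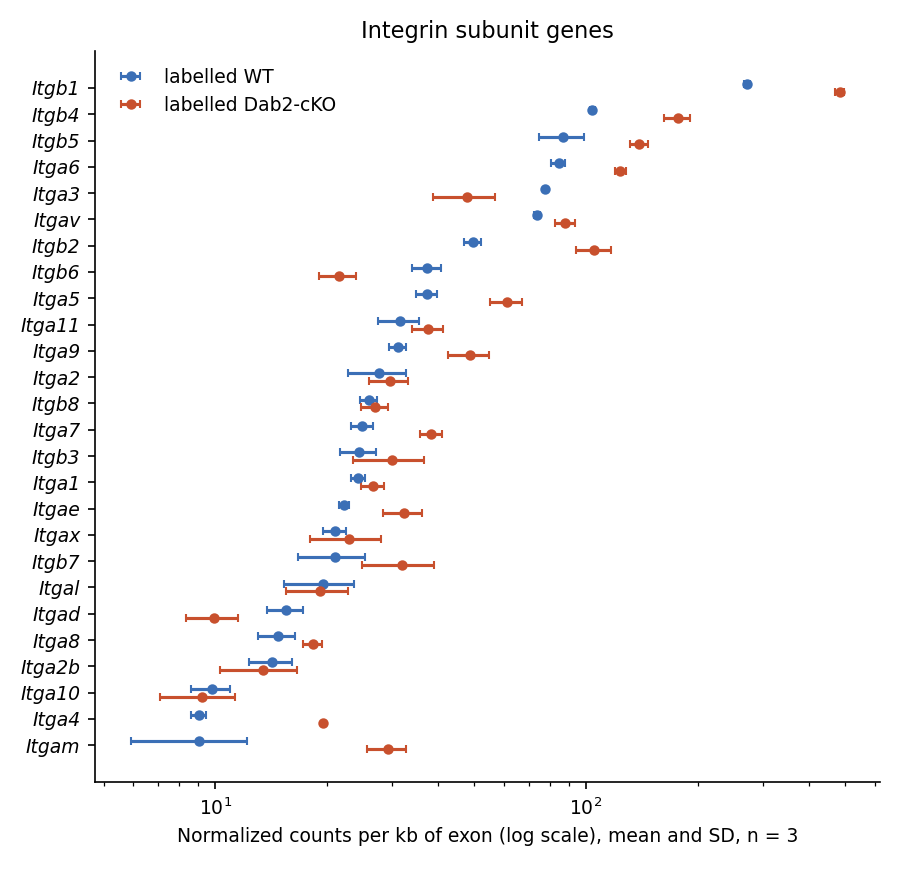
Normalized counts per kb of exon (horizontal axis, log scale) of 26 integrin genes, as mean and SD of 3 libraries, with WT in blue and Dab2-cKO in red, ordered by the WT level. Over the union of exons, Itga6 is 4th in each genotype, at 84.3 and 124. Itga3, just below it in WT, moves the other way, from 77.5 to 47.7.

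Of the genes whose products join α6 integrin in the membrane, the β chains and the hemidesmosome genes rose, and the tetraspanins were split. Both β partners were called higher, Itgb1 with a log2 fold change of 0.83 and Itgb4 with 0.76, and remained so with library size only. Exons of genes on the opposite strand overlap 17.5% of the Itgb4 exon bases. All 3 genes of the hemidesmosome that α6β4 holds were called higher, namely Plec at 0.72, Dst at 1.00 and Col17a1 at 1.01. Of 4 tetraspanins, which gather integrins in the membrane, Cd81 at 1.01 and Cd151 at 0.38 were called higher. Cd9 at -0.15 and Cd82 at -0.01 were not called. With library size only, 1 of the 4 was called higher and 2 lower. Cd9 was called lower also with upper-quartile scaling, with scaling to the basal keratinocyte genes or to Actb, and with a minimum mean count of 50. The call of Cd151 was lost without Dab2-cKO replicate 2 (adjusted p = 0.144), and 23.7% of its exon bases overlap genes on the opposite strand.

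Of 11 laminin chain genes, which encode the ligands of α6 integrin, 5 were called higher, 3 lower and 3 not called, with a median log2 fold change of -0.01. With library size only, 4 were higher and 6 lower. Of the chains made by basal keratinocytes, Lamb3 was called higher at 0.58 and Lama3 lower at -0.22. The call of Lama3 was lost without WT replicate 2, WT replicate 3 or Dab2-cKO replicate 3. Lama2 and Lama4, chains of muscle, vessel and dermal laminins, rose by 1.23 and 1.49, and Lama5, a chain of epithelial and vascular basement membranes, fell by 0.88.

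The relatives of CD34 moved apart. Podxl encodes podocalyxin, a sialomucin of the CD34 family found on endothelium and kidney podocytes, and it had 173, 153 and 170 normalized counts in WT and 607, 623 and 620 in Dab2-cKO. Its log2 fold change was 1.90 (adjusted p = 1.50e-26), next to 1.80 for Cd34, and the groups did not overlap. Podxl2, the third member, was at 108 ± 9.58 normalized counts (SD, n = 3) in WT and 105 ± 8.51 in Dab2-cKO and was not called. Among the selectins, which bind sialomucins, Sele and Selp, adhesion receptors of activated endothelium, were called higher at 1.18 and 0.61. The call of Selp was lost without WT replicate 2 or Dab2-cKO replicate 3. It was also lost with upper-quartile scaling, with scaling to the basal keratinocyte genes or to Actb, and with library size only. Crkl, an adaptor of the CD34 tail, was at -0.10 and was not called.

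The 3 other surface antigens taken here did not share 1 direction. Cd200, another bulge marker, rose by 0.64 on the log2 scale, from 212 ± 18.3 to 329 ± 10.3 normalized counts (SD, n = 3), and Cd24a fell by 0.47, from 699 ± 6.49 to 503 ± 29.0. Cd44, the hyaluronan receptor, fell by 0.43. These genes do not stand for surface antigens at large. Among protein-coding genes named Cd with a number, those with the highest level per kb of exon in either genotype were mostly called higher, as Cd34 was. Of these, only Cd24a and Cd44 were called lower, and Cd9 was not called. A gene could enter this group by its level in 1 genotype alone.

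The genes most like each marker over the 6 libraries were found by Pearson's r of log2 normalized counts among 10845 genes with a mean of at least 100. For Cd34 these were Gsn, Pde4dip and Epas1 with r of 0.9999, and Col1a2 and Fa2h with 0.9998. For Itga6 they were Sik1 and Defb6 with 0.9996, Mxd4 with 0.9995, Igfbp3 with 0.9994 and Gmip with 0.9992. The 6 libraries form 2 groups, so such values mostly restate the difference between genotypes, and 960 genes had r above 0.99 with Cd34 and 493 with Itga6.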

How the data were processed

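Total RNA of FACS sorted HFSCs was sequenced in 6 libraries, 3 per genotype. Per the labels, the authors used a SMARTer Stranded total RNA kit and, per the submitters' processing notes, fastp 0.23.4, HISAT2 2.2.1, SAMtools 1.6, featureCounts 2.0.6 and DESeq2 1.42.0 with GRCm39. The authors deposited read counts per gene without normalization. The strand setting, the handling of reads with several positions and the annotation release are not given in the sources used here. A deposited table of the authors' own DESeq2 comparison (fold changes and p-values) was not used. FL-FL columns were assigned to Dab2-cKO by the series label, which sets the homozygous Dab2 cKO equal to Dab2 Fl/Fl.

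Counts were filtered with filterByExpr (32149 genes kept), scaled by TMM and compared with the quasi-likelihood test of edgeR 4.0.16 in R 4.3.3, over all 6 libraries with genotype as the only term, and p-values were adjusted by Benjamini-Hochberg over all genes tested. The factors of TMM were 1.107 to 1.211 in WT and 0.8472 to 0.8759 in Dab2-cKO. Mitochondrial genes took 13.0% to 14.4% of counts in WT and 19.1% to 20.3% in Dab2-cKO. Intervals cover the model's spread, and a count of 0 allows a share of up to 2.56e-05% to 4.26e-05% (3 counts, counting error only). Ratios within a library used log2(normalized count + 0.5) and an exact 2-sided permutation test. Lengths, coordinates and sequences came from the GENCODE annotation and genome of GRCm39, and 618 genes without a length there were left out of ranks. The fit was tested on simulated data.

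The named genes were Cd34, Itga6, Dab2, members of 16 lists and, for each marker, its 5 most alike genes. One gene counted in the lists is not reported here by name. Cd24a and Cd200 were named after their values were seen. The members and lists were chosen with earlier results of these data known. The alternatives were DESeq2, 5 other scalings, 2 other low-count filters, a replicate block, each library left out in turn, other reference genes, a pseudocount of 5 and other lengths. The canonical transcript and the endothelial and fibroblast references were chosen after seeing the data.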

Additional observations from a re-analysis of the deposited data

How the results depend on the processing

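Cd34 was called higher under all 15 alternatives, with log2 fold changes of 1.37 to 1.88 and 1.73 to 1.88 when a library was left out. Itga6 was called under 14 of 15, with 0.50 to 0.60 when a library was left out, and was lost with library size only (0.13). That scaling called 13854 genes against 9069 and moved the share of calls that were higher from 59.4% to 19.4%, and the integrin counts to 7 higher and 9 lower. The share was 43.5% with upper-quartile scaling, 47.3% with scaling to the basal keratinocyte genes and 46.4% with scaling to Actb, where the median of all genes was -0.17, -0.13 and -0.14. The difference of Itga6 relative to basal keratinocyte genes turned with Krt5 and Krt14 only (-0.18) and with endothelial (-1.19) or fibroblast (-1.23) markers as reference. It was 0.41 to 0.47 when a library was left out, and that of Cd34 was 1.65 to 1.74. Over all references that of Cd34 was 0.02 to 2.25. Itga2, which was not called, turned to -0.059, -0.34, -0.025 and -0.033 under upper-quartile scaling, library size only, basal scaling and Actb. With library size only it was called lower (adjusted p = 0.0215). It turned to -0.0022 with the minimum mean count of 50. With a library left out it ran from -0.038 (without WT replicate 1) to 0.21, and was -0.016 without Dab2-cKO replicate 2. With library size only, Cd151 turned to -0.044 and Tcf7l1 to -0.055, and Lamb3, Selp and Cd200 lost their calls. Itgav, called higher with TMM scaling at 0.25 (adjusted p = 0.00569), was called lower with library size only at -0.18 (adjusted p = 0.0146). Cd151 also lost its call with upper-quartile scaling and Actb. With a library left out, Cd82 ran from -0.098 to 0.11 (without WT replicate 2) and Podxl2 from -0.11 to 0.0080 (without WT replicate 2), with 0.0055 without Dab2-cKO replicate 1. The causes were not tested. The replicate numbers did not pair the libraries, with correlations of same-numbered libraries of 0.135, -0.0475 and 0.105. With the replicate block 8967 genes were called, and Cd34 was at 1.80 and Itga6 at 0.55, both called.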
